A study of Homo sapiens with 9 samples.

Results

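The UGT2B androgen glucuronosyltransferases were examined in LNCaP, a human prostate cancer cell line that depends on androgen, by taking every probe set that the array annotation assigned to UGT2B7, UGT2B10, UGT2B11, UGT2B15, UGT2B17 or UGT2B28. This gave 5 probe sets of 54675 on the array, which stand for 3 of the 6 genes, out of 19775 genes named by a probe set of their own. They are 3 probe sets of UGT2B15 (207392_x_at, 216687_x_at and 217175_at), 1 of UGT2B17 (207245_at) and 1 of UGT2B28 (211682_x_at). None of the 5 was annotated to several symbols. UGT2B7, UGT2B10 and UGT2B11 were named by no probe set in the annotation used and are not analysed here. The ending _x_at marks probe sets whose probes can bind related transcripts, so values of these close paralogs are uncertain as to the gene measured.

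UGT2B enzymes sit in the membrane of the endoplasmic reticulum and transfer glucuronic acid from UDP-glucuronic acid to small lipophilic molecules, which makes them water-soluble for export. UGT2B15, UGT2B17 and UGT2B28 accept androgens, and UGT2B15 and UGT2B17 are the main enzymes that inactivate dihydrotestosterone (DHT) in prostate cells. In LNCaP cells both genes are known to be repressed by androgen, so that hormone clearance is coupled to hormone supply.

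The study measured RNA once in each of 9 groups, on 1 array per group. All cells were LNCaP. Serum-grown cells were kept in 10% serum. The other 8 groups were deprived of steroid for 48 h in 5% charcoal-stripped serum. In the inhibitor series, cells received 100 µM merbarone or 100 µM etoposide for 2 h and then 100 nM DHT for 16 h, or DHT alone, or neither (the deprived control, called vehicle below). Both drugs act on topoisomerase II: etoposide stabilises its cleaved complex with DNA, whereas merbarone is a catalytic inhibitor. The shRNA series used a GFP vector with an shRNA against TOP2B, the beta form of the enzyme, or with a control shRNA. Those cells were deprived after transfection, given DHT or vehicle for 16 h, and sorted for GFP. Values are log2 expression, and a level is called dim where it lies below the median of its own array (5.61 to 5.72 over the 9 arrays). Replication came from the DHT and vehicle pairs of 3 backgrounds (inhibitor series, sh-TOP2B and sh-control), and the disagreement among these 3 pairs was the spread of the tests, apart from a pair of tests on the DHT response itself that are described with their results. Each of these spreads was moderated by limma, the linear-model test used, towards that of probe sets at a like level. The labels name no separate cultures, and p-values therefore cover these samples' spread alone, which may be technical.

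The 4 luminal markers with a probe set, HOXB13, KRT8, KRT18 and FOLH1, were above the array median on all 9 arrays. Of 13 markers of basal, fibroblast, leukocyte, liver and gut cells, 7 were dim on all 9 arrays, including KRT14, DCN, PTPRC, CD14 and the liver gene ALB. COL1A1, APOA1 and TTR were above the median on all 9 arrays, and the remaining 3 on some. The 2 series of arrays stood apart: Pearson r over probe sets was 0.950 to 0.995 within a series and 0.880 to 0.916 between them. The 3' minus 5' difference of the actin control probe sets, a measure of RNA length, was 2.38 to 3.09 on the shRNA arrays and 0.38 to 0.70 on the inhibitor arrays. TOP2B itself was at 10.01 with DHT and 10.09 with vehicle in sh-TOP2B cells, against 10.87 with DHT and 10.54 with vehicle in sh-control cells. The difference of −0.66 ± 0.12 (SE, log2) did not pass the test (limma adjusted p = 0.107).

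The RefSeq table of promoters (GRCh38.p14) matched 4 of the 6 genes. UGT2B15 is shown because it is a gene with measured values, and UGT2B11 because its window lacks 1 of the motifs that UGT2B15 holds. Capitals mark the steroid hormone response element half-site AGAACA and the forkhead core TATTTAC, also where the core is read on the opposite strand as GTAAATA. Each line gives the 250 bases before the annotated start, read 5' to 3' on the strand of the gene, at chr4:68670653-68670902 (minus strand) and chr4:69214749-69214998 (minus strand).

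UGT2B15: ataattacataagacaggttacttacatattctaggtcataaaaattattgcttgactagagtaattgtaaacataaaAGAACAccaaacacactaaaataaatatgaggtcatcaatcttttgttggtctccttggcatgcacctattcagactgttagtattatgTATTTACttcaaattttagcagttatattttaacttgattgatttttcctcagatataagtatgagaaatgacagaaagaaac
UGT2B11: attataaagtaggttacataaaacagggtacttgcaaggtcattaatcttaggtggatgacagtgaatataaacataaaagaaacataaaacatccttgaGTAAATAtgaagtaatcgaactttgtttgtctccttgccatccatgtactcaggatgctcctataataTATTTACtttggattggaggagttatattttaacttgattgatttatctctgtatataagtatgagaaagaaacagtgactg

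The half-site lies at −172 to −167 from the start of UGT2B15 and was found in none of the other 3 windows. It occurs on either strand in 12.4% of 35116 promoter windows of this length. The forkhead core lies at −83 to −77 in UGT2B15 and at −82 to −76 in both UGT2B10 and UGT2B11, against 2.39% of all windows. UGT2B10 and UGT2B11 hold a second, reverse copy of these exact letters at −146 to −140 and −150 to −144. Other forms of the forkhead core were not searched. The UGT2B15 window, for instance, holds gtaaaca shortly before the half-site, a near match of GTAAATA. The window of UGT2B7 has neither AGAACA nor TATTTAC on either strand. The octamer ATGCAAAT (1.63% of windows), the AP-1 site TGANTCA (6.57%) and the HNF1 palindrome (2 windows of all) were found in none of the 4 windows, on either strand. The motifs searched do not overlap one another. The windows of UGT2B10 and UGT2B11 were identical at 90.2% of aligned positions, and that of UGT2B15 at 71.4% with UGT2B11, 70.6% with UGT2B10 and 61.3% with UGT2B7. In gene order on chromosome 4, UGT2B17 and UGT2B15 are neighbours, followed by UGT2B10, UGT2A3, UGT2B7, UGT2B11 and UGT2B28. A motif match is a description of these letters and shows no binding.

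For each of the 4 probe sets that could be tested, the 7 arrays without an inhibitor were the highest, etoposide came below them and merbarone was lowest. The brightest UGT2B15 probe set, 207392_x_at, read 11.19 in serum-grown cells, 5.85 with merbarone and DHT, 10.14 with etoposide and DHT, 11.59 with DHT and 11.59 with vehicle. In the shRNA series it read 11.62 with DHT and 12.15 with vehicle in sh-TOP2B cells, against 11.65 with DHT and 12.30 with vehicle in sh-control cells. Merbarone was the one array on which it came close to the median, and its 9 values spanned 6.46 log2 units, or 87.9-fold.

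The second UGT2B15 probe set, 216687_x_at, read 8.48 in serum-grown cells, 3.39 with merbarone and DHT, 6.57 with etoposide and DHT, 8.91 with DHT and 8.91 with vehicle. In the shRNA series it read 8.90 with DHT and 9.25 with vehicle in sh-TOP2B cells, against 8.91 with DHT and 9.66 with vehicle in sh-control cells. It was dim only with merbarone. For 207392_x_at the DHT and vehicle arrays of the inhibitor series held exactly the same deposited value, and for 216687_x_at 3 arrays did, those 2 and sh-control with DHT. Exactly equal values were found for 5.42% of all probe sets between these DHT and vehicle arrays. A DHT difference of 0.00 for UGT2B15 in the inhibitor series is therefore a tie in the deposited values, and its cause was not tested.

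The remaining UGT2B15 probe set, 217175_at, was dim on all 5 inhibitor-series arrays, at 3.17 in serum-grown cells, 2.60 with merbarone, 2.97 with etoposide, 3.92 with DHT and 3.78 with vehicle. On the shRNA arrays it was above the median, at 6.09 with both DHT and vehicle in sh-TOP2B cells, against 6.11 with DHT and 6.45 with vehicle in sh-control cells. Its mean was below the 40th percentile, so it was not tested, and 4 of the 5 members passed that filter on low values.

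UGT2B17 (207245_at) read 10.60 in serum-grown cells, 4.11 with merbarone and DHT, 8.24 with etoposide and DHT, 10.59 with DHT and 9.38 with vehicle. In the shRNA series it read 11.20 with DHT and 11.49 with vehicle in sh-TOP2B cells, against 11.33 with DHT and 11.67 with vehicle in sh-control cells. Only the merbarone value was dim, and with it raised to the array median the 9 values spanned at least 6.05 log2 units.

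UGT2B28 (211682_x_at), described as active on androgens and other steroids, read 9.39 in serum-grown cells, 5.24 with merbarone and DHT, 8.97 with etoposide and DHT, 10.05 with DHT and 9.65 with vehicle. In the shRNA series it read 11.19 with DHT and 10.66 with vehicle in sh-TOP2B cells, against 11.39 with DHT and 10.76 with vehicle in sh-control cells. It differed from the others in that the DHT arrays stood above their vehicle arrays in all 3 backgrounds.

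**Figure D1:**
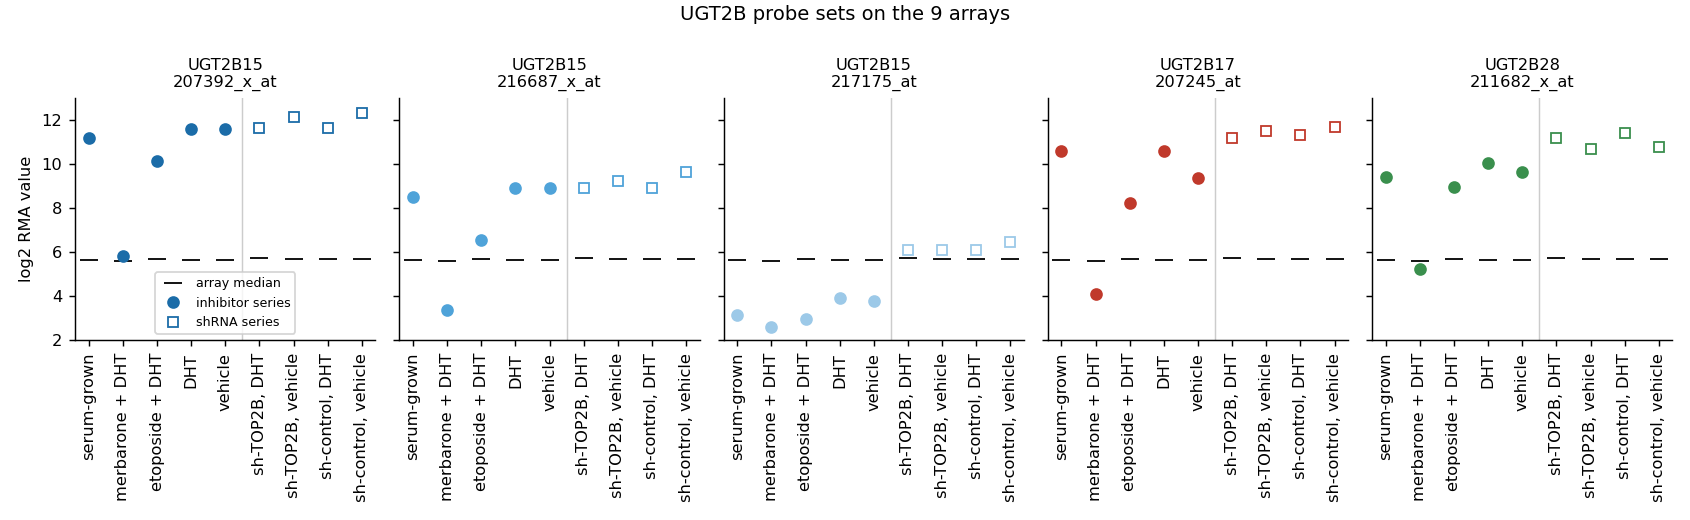
Level of the 5 probe sets (log2, vertical axis) on each of the 9 arrays (horizontal axis), with circles for the inhibitor series, squares for the shRNA series and black ticks at each array's median. The merbarone array is the lowest for every probe set, and 4 of the 5 are dim there.

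A pair of arrays had to differ by 0.52 for 207392_x_at, 0.66 for 216687_x_at, 1.18 for UGT2B17 and 0.36 for UGT2B28 to exceed the 95% limit of the spread (log2). That spread was taken within backgrounds and holds no variation between backgrounds or series. The limit was not adjusted for the number of steps, and neighbours were paired after sorting. By that measure, neighbours in the order of levels were separated for both UGT2B15 probe sets at 2 steps only: serum-grown above etoposide, and etoposide above merbarone. Their highest 7 arrays were not separated from their neighbours. UGT2B17 was separated at DHT above vehicle in the inhibitor series and at etoposide above merbarone. UGT2B28 was separated at 5 steps, which set sh-TOP2B with DHT above sh-control with vehicle, sh-TOP2B with vehicle above DHT in the inhibitor series, DHT above vehicle there, serum-grown above etoposide, and etoposide above merbarone. The steps that involve sh-TOP2B cells compare different backgrounds, for which this limit does not hold.

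The first question was whether DHT, the substrate of these enzymes, changed their RNA. UGT2B15 and UGT2B17 were lower with DHT in both shRNA backgrounds, UGT2B17 was higher with DHT in the inhibitor series, and UGT2B28 was higher in all 3. For 207392_x_at the DHT minus vehicle difference was 0.00 in the inhibitor series, −0.53 in sh-TOP2B cells and −0.65 in sh-control cells, a mean of −0.39 ± 0.13 (SE, 3 pairs; limma adjusted p = 0.216). For 216687_x_at it was 0.00, −0.36 and −0.75 in the same order, a mean of −0.37 ± 0.16 (limma adjusted p = 0.326). No pair of either probe set was higher with DHT.

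UGT2B28 differed by 0.39, 0.53 and 0.63 in the same order, a mean of 0.52 ± 0.09 or 1.43-fold (limma adjusted p = 0.0932). This direction is the opposite of that of UGT2B15 in the shRNA backgrounds. UGT2B17 differed by 1.20, −0.29 and −0.34, so that its mean of 0.19 ± 0.29 averages opposite directions (limma adjusted p = 0.806). With limma, 0 of the 4 members passed in this comparison, in which 0.314% of 32768 probe sets were called; at an unadjusted p under 0.05 the count was 2, for 207392_x_at and UGT2B28. Without the inhibitor-series pair, all 4 passed, and UGT2B17 turned to −0.32 (limma adjusted p = 0.00826), while 207392_x_at was at −0.59 (limma adjusted p = 8.45e-05) and UGT2B28 at 0.58 (limma adjusted p = 0.000281). That fit rests on 2 pairs, and it called 4553 probe sets where all 3 pairs called 103.

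**Figure D2:**
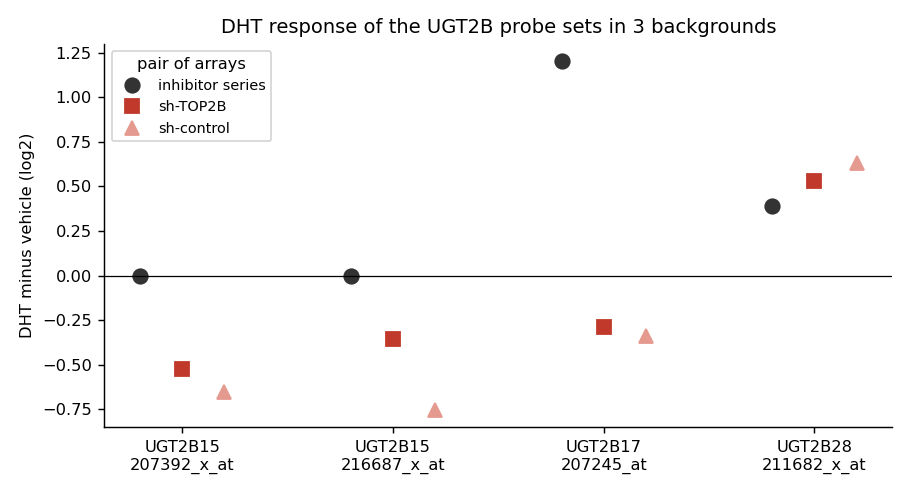
DHT minus vehicle difference (log2, vertical axis) of each tested UGT2B probe set in each of the 3 backgrounds, with 1 mark per pair of arrays. UGT2B17 stands at 1.20 in the inhibitor series and at −0.29 and −0.34 in the shRNA series, while the points of UGT2B28 all lie above 0.

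The DHT response of UGT2B17 in the inhibitor series was 1.52 ± 0.15 above the mean of the 2 shRNA pairs (95% interval 1.18 to 1.85, limma adjusted p = 0.00353). This comparison was added after the data were seen. Its spread had 1 residual degree of freedom, from the difference between the 2 shRNA pairs. The rest was borrowed by limma from probe sets of like level. The call was lost without the intensity trend of the fit (limma adjusted p = 0.610), where 0 of 32768 probe sets were called and 2510 had an unadjusted p under 0.05. It called 1 of the 4 members as higher, against 0.421% of all probe sets called higher. The other differences were 0.59 ± 0.12 for 207392_x_at (limma adjusted p = 0.0675), 0.55 ± 0.25 for 216687_x_at (limma adjusted p = 0.474) and −0.19 ± 0.15 for UGT2B28 (limma adjusted p = 0.783).

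Vehicle levels also differed between the series. UGT2B17 with vehicle was at 11.67 in sh-control cells and 9.38 in the inhibitor series, a difference of 2.28, against a difference of 0.74 between the DHT arrays. For UGT2B28 the sh-control minus inhibitor-series differences were 1.10 with vehicle and 1.34 with DHT. For 207392_x_at they were 0.72 with vehicle and 0.06 with DHT, and for 217175_at, dim in the inhibitor series, at least 0.80 and at least 0.46. Transfection, sorting and the actin 3' minus 5' difference given above moved with the series, and their part in these differences cannot be told apart from it.

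The 4 androgen response genes KLK3, KLK2, TMPRSS2 and FKBP5 were read as a check of the hormone. All 4 rose with DHT, where 0.314% of all probe sets were called. Against both shRNA backgrounds, the response in the inhibitor series was lower for 3 of the 4. These were KLK2 (−1.86, limma adjusted p = 0.0121), TMPRSS2 (−0.97, limma adjusted p = 0.0122) and FKBP5 (−1.05, limma adjusted p = 0.00542). That comparison called 261 of 32768 probe sets lower, and 0 in either direction without the intensity trend. The rise of KLK3, the gene of prostate-specific antigen, was 5.10 on the log2 scale (limma adjusted p = 2.30e-05).

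With merbarone before DHT, every tested UGT2B probe set fell. UGT2B15 at 207392_x_at was 5.74 ± 0.22 log2 units lower with merbarone, at 5.85 against 11.59 with DHT alone, a 53.5-fold difference with both levels above the array median (limma adjusted p = 0.000201). Among the 25630 probe sets above the median on both of these arrays, it had the largest fall. The other members were dim with merbarone, so their falls are lower bounds with the dim level raised to the array median. Wherever a bound is given, here and below, the p-value is that of the measured difference and not of the bound. UGT2B17 was at least 31.4-fold lower (measured 4.11 with merbarone and 10.59 with DHT, limma adjusted p = 0.000602). UGT2B28 was at least 21.6-fold lower (measured 5.24 with merbarone and 10.05 with DHT, limma adjusted p = 0.000197). The second UGT2B15 probe set was at least 9.79-fold lower (measured 3.39 with merbarone and 8.91 with DHT, limma adjusted p = 0.000300).

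All 4 members, which stand for 3 genes, were called lower, against 11.6% of all probe sets called lower in this comparison. After raising dim levels to their array's median, the median difference of the members was −4.70, against −0.04 over all probe sets tested. Ordered by fall in the same way, the 4 held places 1 (207392_x_at), 4 (UGT2B17), 9 (UGT2B28) and 19 (216687_x_at) of 28405 probe sets. In bulk RNA, fewer cells that express a gene and less RNA per cell cannot be told apart.

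Etoposide before DHT gave smaller falls. The second UGT2B15 probe set was lower by 2.33 ± 0.28, or 5.03-fold, at 6.57 with etoposide against 8.91 with DHT (limma adjusted p = 0.0247). The difference was −1.45 ± 0.22 at 207392_x_at (limma adjusted p = 0.0487) and −1.08 ± 0.15 for UGT2B28 (limma adjusted p = 0.0413). UGT2B17 had the numerically largest difference, −2.35 ± 0.49, but did not pass (95% interval −3.52 to −1.17, limma adjusted p = 0.111). Its spread is wide because its 3 DHT effects differ in direction. Without the inhibitor-series pair it passed (limma adjusted p = 1.59e-07), the only 1 of 11 alternatives in which it did. That spread came from the 2 shRNA pairs, not from the series that holds the etoposide and DHT arrays. The same setting called 2434 probe sets for etoposide, against 226 with all 3 pairs.

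Of the 4 members, 3 were called lower with etoposide, against 0.504% of all probe sets called lower. Their median difference was −1.89, against −0.03 over all probe sets. The calls at 207392_x_at and UGT2B28 lie close to the threshold and were lost under several settings, such as no filter on low values (limma adjusted p = 0.0941 and 0.0751), and all 3 were lost without the sh-TOP2B pair (limma adjusted p of 0.131 to 0.241).

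Since etoposide and merbarone were given at the same concentration and time, the 2 arrays can be set side by side directly. All 4 members were higher with etoposide than with merbarone, against 9.23% of all probe sets called higher. The difference was 4.30 ± 0.22 at 207392_x_at (10.14 with etoposide and 5.85 with merbarone, limma adjusted p = 0.000423). It was at least 10.2-fold for UGT2B28 (limma adjusted p = 0.000423), at least 6.17-fold for UGT2B17 (limma adjusted p = 0.00265) and at least 1.95-fold at 216687_x_at (limma adjusted p = 0.00103). How far each compound inhibited the enzyme at this concentration was not measured here.

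Set against vehicle instead of DHT, the inhibitor arrays were still lower. Merbarone was 5.74 below vehicle at 207392_x_at, with bounds of at least 3.29 at 216687_x_at, 3.77 for UGT2B17 and 4.04 for UGT2B28. Etoposide minus vehicle was −1.45 and −2.33 at the 2 UGT2B15 probe sets and −0.69 for UGT2B28, each beyond the 95% limit, and −1.15 for UGT2B17, within it. With 1 exception, UGT2B17 with etoposide, the members were thus beyond the spread below cells given no DHT. Of the 4 androgen response genes, 3 were called lower with merbarone than with DHT alone, where 11.6% of all probe sets were called lower. KLK3 read 5.56 with merbarone, 7.68 with etoposide, 11.02 with DHT and 5.68 with vehicle, and was at least 42.3-fold lower with merbarone than with DHT (limma adjusted p = 0.000197). KLK2 was at least 9.20-fold lower (limma adjusted p = 0.00268), and TMPRSS2 fell by 1.94 on the log2 scale (limma adjusted p = 0.00753). FKBP5 differed by −0.23 (limma adjusted p = 0.762). With etoposide, KLK3 fell by 3.34 (limma adjusted p = 0.00271) and the other 3 did not pass. With merbarone and with vehicle, KLK2 read 3.86 and 4.04, both dim, and TMPRSS2 read 9.41 and 9.84.

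**Figure D3:**
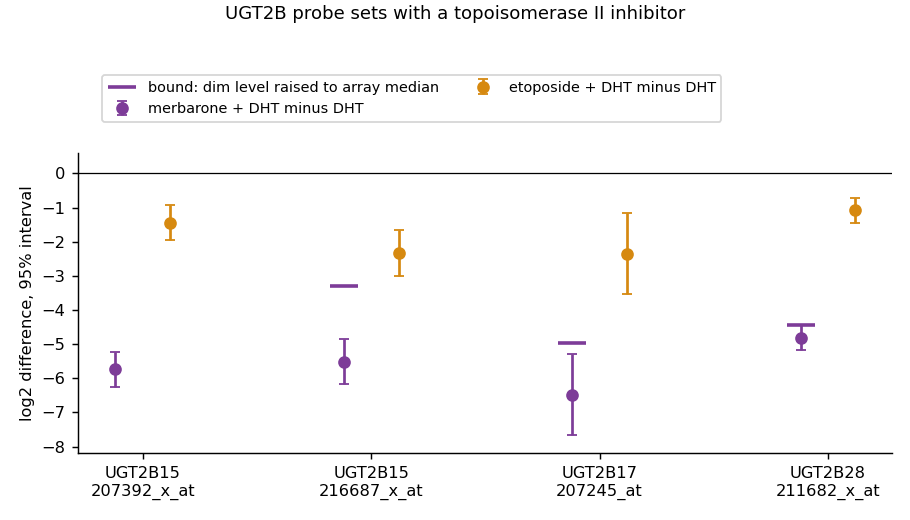
Difference of the etoposide and merbarone arrays from DHT alone (log2, vertical axis) for each tested UGT2B probe set, with 95% intervals as bars and wide ticks at the bound where the merbarone level was dim. The merbarone points lie below the etoposide points for all 4 probe sets.

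No member passed the test between serum-grown cells and deprived cells with vehicle. UGT2B17 was at 10.60 in serum-grown cells and 9.38 with vehicle, a difference of 1.22 ± 0.49 (limma adjusted p = 0.154). The differences were −0.39 at 207392_x_at (limma adjusted p = 0.301), −0.42 at 216687_x_at (limma adjusted p = 0.400) and −0.26 for UGT2B28 (limma adjusted p = 0.336). With limma 0 of 4 passed, where 17.8% of all probe sets were called, and 1 (UGT2B17) had an unadjusted p under 0.05. Without the inhibitor-series pair, UGT2B17 (limma adjusted p = 2.19e-06) and 207392_x_at (limma adjusted p = 0.00611) passed. Each passed in only this 1 of 11 alternatives. That spread came from the shRNA pairs alone, not from the series that holds the serum-grown and vehicle arrays. The same setting called 9030 probe sets for serum-grown against vehicle, where the main fit called 5833. Against DHT, serum-grown cells were lower by 0.65 for UGT2B28, beyond its limit of 0.36, and differed by 0.02 for UGT2B17.

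No member passed the test between sh-TOP2B and sh-control cells. The sh-TOP2B minus sh-control differences were −0.09 and −0.21 at the UGT2B15 probe sets (limma adjusted p = 0.967 and 0.922), −0.15 for UGT2B17 (limma adjusted p = 0.975) and −0.14 for UGT2B28 (limma adjusted p = 0.882). For 207392_x_at the 95% interval was −0.46 to 0.27, and for UGT2B17 −0.98 to 0.68. With limma 0 of 4 passed, also without adjustment, where 0.623% of all probe sets were called. The DHT response in sh-TOP2B cells against the other backgrounds was −0.72 ± 0.60 for UGT2B17 (95% interval −2.21 to 0.77) and closer to 0 for the others. Its spread was the disagreement between the inhibitor-series and sh-control pairs, moderated by limma in the same way. In that comparison limma called 0 of 4 members and 0 of 32768 probe sets, with 752 at an unadjusted p under 0.05. TOP2B RNA itself did not pass the test in these cells, which limits what this comparison can show.

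The steps around glucuronidation were read from gene lists. In the supply and removal of UDP-glucuronic acid, 1 of 6 genes changed with merbarone, where 21.7% of all probe sets were called in either direction. This was UXS1, the enzyme that turns UDP-glucuronic acid into UDP-xylose, at 6.89 with merbarone and 9.60 with DHT, lower by 2.71 ± 0.16 (limma adjusted p = 0.000365). UGDH, which makes UDP-glucuronic acid, differed by −0.46 (limma adjusted p = 0.0881). The list's median was −0.14, against −0.04 over all probe sets, both with dim levels raised.

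Of 11 tested genes of androgen conversion, 3 fell with merbarone and 0 rose, where 11.6% of all probe sets fell. The list's median was −0.23 with dim levels raised, against −0.04 over all probe sets. HSD17B11, which oxidises androgen metabolites, fell by 1.56 (6.63 with merbarone and 8.19 with DHT, limma adjusted p = 0.00472). STS, the steroid sulfatase, fell by 1.09 (limma adjusted p = 0.0235). HSD17B4, a peroxisomal dehydrogenase, fell by 0.61 (limma adjusted p = 0.0114). With arrays centred on 10 reference genes, STS (limma adjusted p = 0.0582) and HSD17B4 (limma adjusted p = 0.116) no longer passed. With etoposide, 0 genes of the supply, conversion or transport lists passed, where 226 of 32768 probe sets were called. In the shRNA series, STS was higher in sh-TOP2B cells by 1.31 ± 0.18 (limma adjusted p = 0.0332).

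Among 5 tested transporters of glucuronides and steroids, 0 passed with DHT or with either inhibitor. Of all 32768 probe sets, 0.314% were called for DHT, 226 for etoposide and 21.7% for merbarone. A list of 5 genes is too short to set 0 apart from these shares. ABCC4, an exporter of organic anions, showed a DHT difference of 2.10 (limma adjusted p = 0.104). Its DHT response was 2.06 lower in the inhibitor series than in the shRNA series (limma adjusted p = 0.00125), opposite in sign to that of UGT2B17. ABCC1 also had a lower response there (−0.67, limma adjusted p = 0.0297) and ABCG2 a higher one (2.22, limma adjusted p = 0.0329), with ABCG2 dim on 2 of the 6 arrays.

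**Figure D4:**
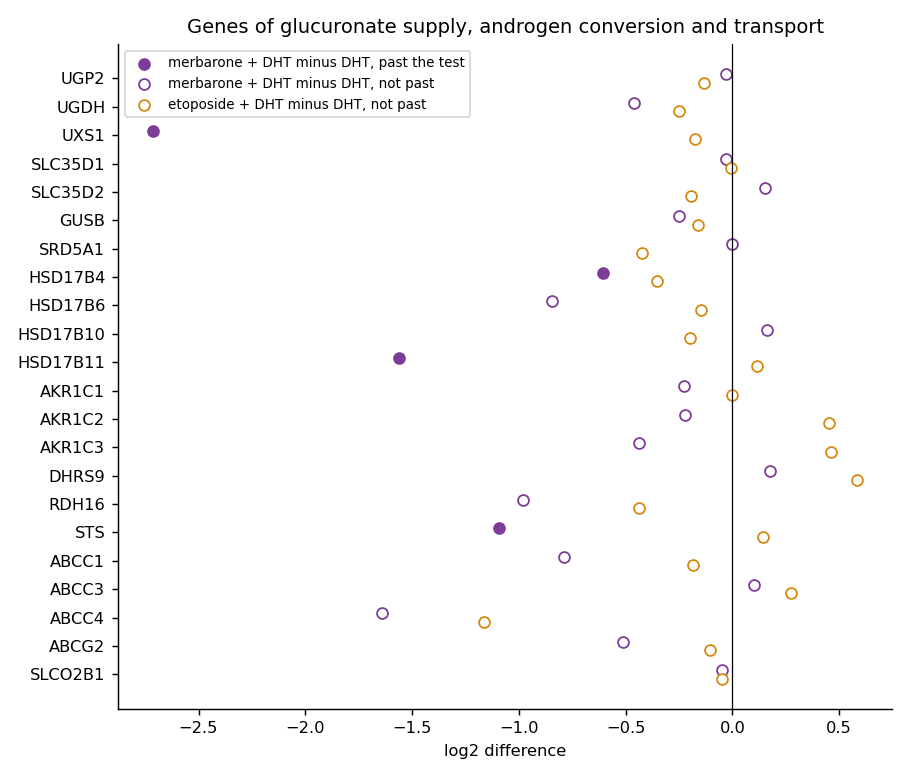
Difference of merbarone with DHT and of etoposide with DHT from DHT alone (log2, horizontal axis) for the tested genes of UDP-glucuronic acid supply, androgen conversion and transport, with filled marks for genes past the test. UXS1 with merbarone stands at -2.71, and no etoposide mark is filled.

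Among other UGT genes, 6 of 16 had a probe set of their own, and UGT2B4, UGT2A3, UGT3A1, UGT1A1 and UGT1A6 were dim on all 9 arrays. UGT8, which adds galactose to ceramide, was the 1 gene tested. It read 5.77 in serum-grown cells and 3.74 with vehicle, a measured difference of 2.03 (limma adjusted p = 0.00812). The vehicle level was dim, and with it raised to the array median the difference was at least 0.11, a bound that was not tested. Of 7 tested transcription factors described at UGT2B promoters, 3 changed with merbarone, against 21.7% of all probe sets. FOXA1, a forkhead factor, was at 9.81 with merbarone and 10.58 with DHT, a fall of 0.76 (limma adjusted p = 0.00867). FOS, part of AP-1, rose by 2.13 (limma adjusted p = 0.00352), and NFE2L2, the regulator of antioxidant genes, rose by 0.92 (limma adjusted p = 0.00309). With the same centring the fall of FOXA1 no longer passed (limma adjusted p = 0.0682).

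The levels of the 4 tested probe sets moved alike over the 9 arrays, as a description in which the low merbarone array weighs heavily. They stand for 3 genes, and r was 0.988 between the 2 UGT2B15 probe sets. All but UGT2B17 are _x_at probe sets, whose probes can bind related transcripts, and the part of such binding was not tested. Pearson r between 207392_x_at and UGT2B17 was 0.967 over 9 arrays and 0.862 over the 8 without merbarone. It was 0.951 and 0.714 between 207392_x_at and UGT2B28, and 0.966 and 0.832 between UGT2B17 and UGT2B28. The dim probe set 217175_at was less like the others, with r over 9 arrays of 0.657 with 207392_x_at, 0.690 with 216687_x_at, 0.751 with UGT2B17 and 0.786 with UGT2B28. Of 6452 genes, those most like UGT2B15 were ALG14 (r = 0.984), FASTKD5 (0.980), ATP11A (0.976), GRK3 (0.975) and LIPA (0.975). Without merbarone these fell to between 0.717 and 0.858. Those most like UGT2B17 were SEC23IP (0.986), C14orf132 (0.986), RBM12 (0.984), RLN2 (0.984) and SFPQ (0.983), which kept 0.925 to 0.964 without merbarone. All such points share their 9 arrays.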

How the data were processed

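The authors deposited log2 expression values per probe set. Per the submitters' processing notes they used RMA, with no version stated. RMA equalises array distributions, so shifts common to most genes are lost. Of 54675 probe sets, 41097 had 1 symbol, 1801 several and 11777 none in the platform annotation, and 62 were controls. Probe sets with a mean below the 40th percentile (5.10) were left out, which left 32768. Tests used limma 3.58.1 in R 4.3.3 with an intensity trend, two-sided, with Benjamini-Hochberg adjustment over all 32768 and a threshold of 0.05. Terms were background (3 levels), DHT, and 1 for each of the 3 lone arrays (2 residual and 4.77 prior degrees of freedom). The fit for the DHT response in sh-TOP2B cells had 1 residual and 4.68 prior degrees of freedom. Each lone array was set directly against its comparison array, on the assumption that it varies like the 3 pairs. The code was tested on simulated data. Precision is limited by the number of arrays. Members are all probe sets annotated to the 6 symbols. Genes of the lists are named where a count is given by name or where they passed a test, but not every such pass is given. The likeness rule took the 5 genes with the highest r. The members and lists were chosen with earlier results of these data known. Windows were aligned with Biopython 1.88. Some genes are not reported here.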

Additional observations from a re-analysis of the deposited data

Results flagged for a closer look

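The DHT response of UGT2B17 (207245_at) was 1.52 log2 units higher in the inhibitor series than the mean of the 2 shRNA pairs, with values of 1.20 in the inhibitor series and -0.29 and -0.34 in the shRNA series. It stands out because the difference between the 2 kinds of background passed its own test (limma adjusted p = 0.00353), a call that was lost without the intensity trend (limma adjusted p = 0.610). That test was added after the data were seen, and it sets 1 inhibitor-series pair against the spread of the shRNA pairs. UGT2B17 read 9.38 on the 1 inhibitor-series vehicle array, against 10.59 with DHT and 10.60 in serum-grown cells. The part of transfection, sorting and RNA length cannot be told apart from the series.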

How the results depend on the processing

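No paired analysis was possible because the labels give no replicate numbers, beyond the pairing of DHT with vehicle within each background that the fit already holds. With no intensity trend, the counts of probe sets called were 6 for DHT, 0 for etoposide, 4381 for merbarone, 3832 for etoposide against merbarone, 3065 for serum-grown, 103 for sh-TOP2B and 0 for the difference between series (limma, with 3557 for etoposide and 2510 for the series at an unadjusted p under 0.05). With the trend they were 103, 226, 7115, 6719, 5833, 204 and 399. With no filter, 42 were called for DHT, 109 for etoposide and 83 for the series. A stricter filter gave 377 for etoposide. With the highest probe set per gene the counts were 42 for DHT, 101 for etoposide, 3586 for merbarone, 3701 for etoposide against merbarone and 3207 for serum-grown. With the median over probe sets they were 35, 92, 2844, 2827 and 2683, and 134 for sh-TOP2B. Centring on reference genes gave 64 for DHT and 134 for etoposide, and a fitted reference level gave 442 for etoposide. Leaving out 1 pair gave 10 to 4553 for DHT, 29 to 2434 for etoposide, 4584 to 10111 for merbarone, 4061 to 9967 for etoposide against merbarone and 3463 to 9030 for serum-grown; the highest for DHT, etoposide and serum-grown came without the inhibitor-series pair.

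Centring moved the median of all probe sets to 0.12 for etoposide, 0.26 for merbarone, -0.12 for etoposide against merbarone and 0.19 for serum-grown. It changed the split of higher and lower calls to 63 and 71 for etoposide (61 and 165 before), 5372 and 2129 for merbarone (3305 and 3810), 2170 and 4408 for etoposide against merbarone (3023 and 3696) and 4211 and 2039 for serum-grown (2855 and 2978).

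The 4 merbarone calls held under every alternative run. The etoposide calls were lost at 207392_x_at, 216687_x_at and UGT2B28 without the trend (limma adjusted p = 0.259, 0.198 and 0.233), and at 207392_x_at and UGT2B28 with centring (0.0709 and 0.121), with quantile normalization (0.0784 and 0.0620) and without the sh-control pair (0.0980 and 0.126). The UGT2B17 difference between series was lost without the trend (limma adjusted p = 0.610). Directions reversed for UGT2B17 with DHT (-0.32 to 0.46 on leaving out 1 pair, -0.32 without the inhibitor-series pair) and for differences near 0 in the sh-TOP2B response: 0.022 at 207392_x_at with the median over probe sets, and with centring -0.043 at 216687_x_at and -0.045 for UGT2B28. The causes were not tested.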
